A study of Mus musculus with 18 samples.

Results

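The genes described here are those for collagen chains, taken as every gene in the deposited count table whose symbol is Col, a type number, the letter a and a chain number. The rule found 44 genes of 45706 and used no measured value. They were read in BMC, immortalised brown preadipocytes of the mouse that had been differentiated into heat-producing brown adipocytes. All cultures went through the same differentiation and were used on day 7. The labels give 3 groups of 6 libraries: cells not induced (0 h), and cells taken 4 h and 24 h after 1 µM norepinephrine, the sympathetic transmitter that starts lipolysis. Each group carries replicate numbers 1 to 6 in its titles, and all 18 libraries are labelled batch 1. BMC is 1 immortalised line in culture, which limits it as a model of brown fat tissue. The labels do not state that libraries of the same time were grown apart, and each p-value reflects library-to-library spread that can be purely technical.

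Collagens are trimers of alpha chains that wind into a triple helix. Fibrillar collagens (types I, II, III, V, XI, XXIV and XXVII) assemble into the banded fibrils that give connective tissue its strength. Basement membrane collagens form the sheet that surrounds each fat cell: type IV chains make its network, and types XV and XVIII sit in or next to it. The other collagens include the beaded filaments of type VI, which are abundant around adipocytes, the fibril-associated types, the short-chain network types and those that span the cell membrane. By these classes the 44 genes were 11 fibrillar, 8 basement membrane and 25 other collagens. All of these values are RNA levels in bulk samples, in which fewer cells of a type and less RNA per cell cannot be told apart.

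The libraries held between 7010742 and 26501223 expected counts each. They grouped by the replicate numbers in the titles and not by the labelled times. In the median tested gene, 62.7% of the variance lay between the sets of numbers 3+6, 2+5 and 1+4, and 3.78% between the labelled times. In the median tested collagen these shares were 84.5% and 2.42%, and the set took a larger share than the time in 29 of 29 collagens, against 13422 of all 14788 genes. The sets have no label of their own and were proposed after correlations between libraries over all genes had been seen, so calls between them describe how the sets differ and are no independent test. What the numbers stand for is not given in the sources used here. The 24 h replicate 5 library was the shallowest, and 41.5% of its counts fell on Yam1 and Gm26917, against 6.78% to 10.6% in the other 17 libraries. These genes were taken here to collect ribosomal RNA (rRNA) reads, so their share stands in for rRNA, and the library is called rRNA-rich below. It belongs to the 2+5 set, and values that rest on it are given with and without it where they differ.

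The cells carried the markers their label calls for, although some were weak. All 10 brown adipocyte markers passed the filter on low counts, with Fabp4 and Adipoq high and Ucp1, the uncoupling protein of brown fat, at a mean of only 9.34 counts scaled to a common library total (CPM). Of 10 fibroblast and preadipocyte markers 7 passed the filter, and Thy1, Dpp4 and Pi16 did not. No endothelial marker passed, with Cdh5 at 0 counts, and of the macrophage markers only Cd68 passed, with Adgre1 at 0 counts. Collagen RNA is thus described here in a culture in which defining endothelial and macrophage genes were at or near 0.

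Every collagen gene had at least 2 counts over the 18 libraries, so none was at 0 throughout, but 15 of the 44 were too low to test. Of the fibrillar class 9 of 11 genes were tested, of the basement membrane class 6 of 8, and of the others 14 of 25. The 15 below the filter totalled between 2 and 95 counts over all 18 libraries. The cartilage gene Col2a1 had 91 counts and Col24a1 had 58, so the fibrillar class here had little or no RNA for the main cartilage collagen. Col4a3 and Col4a4, the type IV chains known from kidney and lung basement membranes, had 9 and 25 counts. Among the other types, Col14a1 had 95 counts, Col6a6 had 92, Col10a1 of growth plate cartilage had 77, Col17a1 of skin hemidesmosomes had 54, Col22a1 had 49 and Col8a2 had 48. Col19a1 had 17 counts, Col26a1 had 6, Col13a1 had 4, and the cartilage genes Col9a1 and Col9a2 had 2 each. Col13a1 had at most 1 count in a library, in 4 libraries, and Col9a1 and Col9a2 at most 1, in 2 libraries each. Such single counts do not establish that these 3 genes were detected. When the filter was dropped, no low gene was called between labelled times or in 2+5 against 1+4 libraries (edgeR). In that fit 2 of the 15 low genes were called higher in 3+6 libraries against both other sets: Col24a1, with 40 counts over the 3+6, 5 over the 2+5 and 13 over the 1+4 libraries, and Col6a6, with 58, 13 and 21 counts. That fit called 17.5% of all genes higher against 1+4 and 16.8% against 2+5 libraries. DESeq2 without the filter called both genes in 3+6 against 2+5 (15.6% of all genes higher), and Col6a6 but not Col24a1 in 3+6 against 1+4 (16.3%). In the 24 h replicate 5 library 12 of the 44 genes were at 0 counts, 2 of them among the tested genes (Col6a5 and Col9a3), and a count of 0 there allows a level of up to 0.994 CPM, counting error only.

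Levels of different genes can be compared only per length, so CPM were divided by the length of the principal transcript in kilobases. On that scale Col6a1 had the highest mean over the 18 libraries, with 283 CPM per kb, and its partner chains Col6a2 and Col6a3 had 141 and 105 CPM per kb. Col4a1 was second with 210 CPM per kb and Col4a2 had 118 CPM per kb. Among the fibrillar genes the means were 104 for Col1a1, 79.1 for Col3a1, 57.4 for Col5a2, 32.8 for Col27a1, 29.0 for Col1a2 and 27.9 CPM per kb for Col5a1. Of the remaining tested genes the highest was Col4a5, with 18.2 CPM per kb, followed by Col15a1 with 12.4 and Col12a1 with 11.6 CPM per kb. The order changed with the set: Col4a1 and Col6a1 were level in 2+5 libraries, at 257 and 256 CPM per kb, and in 3+6 libraries Col1a1 (147) and Col3a1 (98.1) lay above Col6a3 (90.3 CPM per kb).

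The make-up of this collagen RNA differed between the sets of numbers. Fibrillar genes held 30.5% ± 0.969 of summed collagen CPM per kb in 3+6 libraries, 26.0% ± 1.30 in 2+5 libraries and 22.9% ± 0.302 in 1+4 libraries (SD, n = 6 each). Basement membrane genes held 22.4% ± 0.709 in 3+6, 34.0% ± 1.25 in 2+5 and 31.7% ± 0.276 in 1+4 libraries. The other collagens held 47.1% ± 0.580, 40.0% ± 0.374 and 45.4% ± 0.290 in those 3 sets. The fibrillar ranges of the 3 sets did not overlap, and neither did those of the other collagens. Between labelled times the shares were close: fibrillar genes held 26.0% ± 3.36 at 0 h, 26.5% ± 3.89 at 4 h and 26.9% ± 3.28 at 24 h, differences that were smaller than the spread within a time. Summed over all 44 genes, collagen counts came to 7907 ± 434 CPM in 3+6, 7704 ± 416 CPM in 2+5 and 6488 ± 220 CPM in 1+4 libraries.

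**Figure D1:**
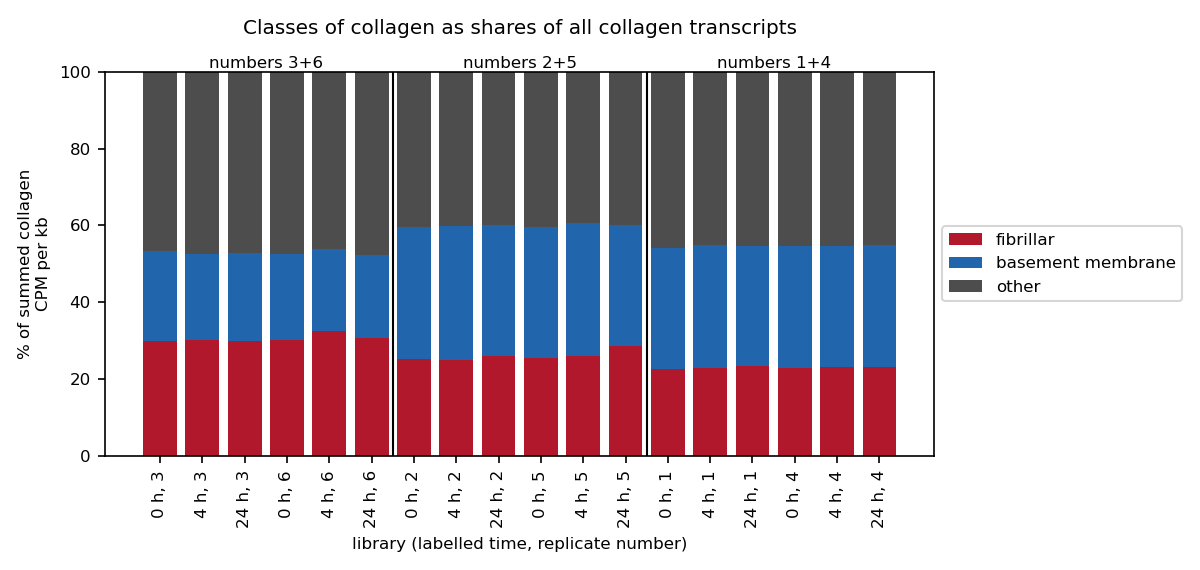
Stacked bars give the share of fibrillar (red), basement membrane (blue) and other (grey) collagens in the summed collagen CPM per kb of each of the 18 libraries, in percent from 0 to 100, with libraries ordered by set and then by replicate number and labelled time. The fibrillar share lies between 29.9% and 32.4% in 3+6, 24.9% and 28.5% in 2+5 and 22.5% and 23.4% in 1+4 libraries, and the basement membrane share is lowest in the 3+6 libraries.

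Between the 3+6 and 1+4 libraries most collagens differed. In the 3+6 libraries 19 of 29 tested collagens were higher and 7 were lower at an adjusted p under 0.05 (edgeR), against 59.7% of all 14788 genes called, 30.2% higher and 29.5% lower. The median log2 fold change was 0.50 over the collagens and 0.00 over all genes. The groups did not overlap in any library for 22 of the 29 collagens, 17 higher and 5 lower, against 38.6% of all genes. By class, 8 of 9 fibrillar genes were higher and 1 lower (median log2 fold change 0.63), 1 of 6 basement membrane genes was higher and 4 lower (median -0.43), and 10 of 14 other collagens were higher and 2 lower (median 0.54). Of those 14, Col6a4, Col6a5 and Col25a1 passed the filter on low counts only with the help of the 3+6 libraries, where they were highest. Without these 3 genes, a setting chosen after seeing the data, 8 of 11 other collagens were higher and 2 lower (median 0.52). Over all classes 17 of 26 collagens were then higher and 7 lower (median 0.49). Col6a4 and Col6a5 are also among the genes that were higher without overlap. With library totals left unscaled the median of all genes moved to 0.17, and the 3 class medians kept their signs at 0.82, -0.27 and 0.70, with 19 collagens called higher and 3 lower.

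Set against the same 1+4 libraries, the 2+5 libraries had most of the fibrillar genes higher, while the calls in the other classes went both ways. Here 13 of 29 collagens were higher and 5 lower, against 59.5% of all genes called, 29.6% higher and 29.9% lower. The libraries did not overlap for 11 collagens, 8 higher and 3 lower, against 35.3% of all genes. Fibrillar genes were higher in 7 of 9 cases and lower in none (median log2 fold change 0.39), while basement membrane genes were 2 higher and 3 lower (median -0.09) and other collagens 4 higher and 2 lower (median 0.04). This comparison leaned on scaling: with unscaled totals only 5 collagens were called, 3 higher and 2 lower, the median of all genes moved to -0.09, and the median of the other collagens turned to -0.07. Leaving out 24 h replicate 5 as well, unscaled totals again called 13 higher and 3 lower, and that median was 0.06.

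Between the 3+6 and 2+5 libraries the collagens outside the fibrillar and basement membrane classes were called higher most often. In the 3+6 libraries 17 collagens were higher and 8 lower, against 57.1% of all genes called, 28.6% higher and 28.5% lower. The libraries did not overlap for 15 collagens, 9 higher and 6 lower, against 29.8% of all genes. Among the 9 higher were Col6a4, Col6a5 and Col25a1, which passed the filter with the help of the 3+6 libraries. Without these genes 14 of 26 collagens were called higher and 8 lower (median log2 fold change 0.30). Other collagens were 11 higher and 1 lower (median log2 fold change 0.54), or 8 and 1 of 11 (median 0.47) without Col6a4, Col6a5 and Col25a1, fibrillar genes 5 higher and 2 lower (median 0.31), and basement membrane genes 1 higher and 5 lower (median -0.44). With unscaled totals the median of all genes moved to 0.25 and the split became 17 higher and 1 lower, with the class medians at 0.81, 0.61 and -0.17. The 3 comparisons of sets share their libraries in pairs, so their calls are not independent of each other.

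**Figure D2:**
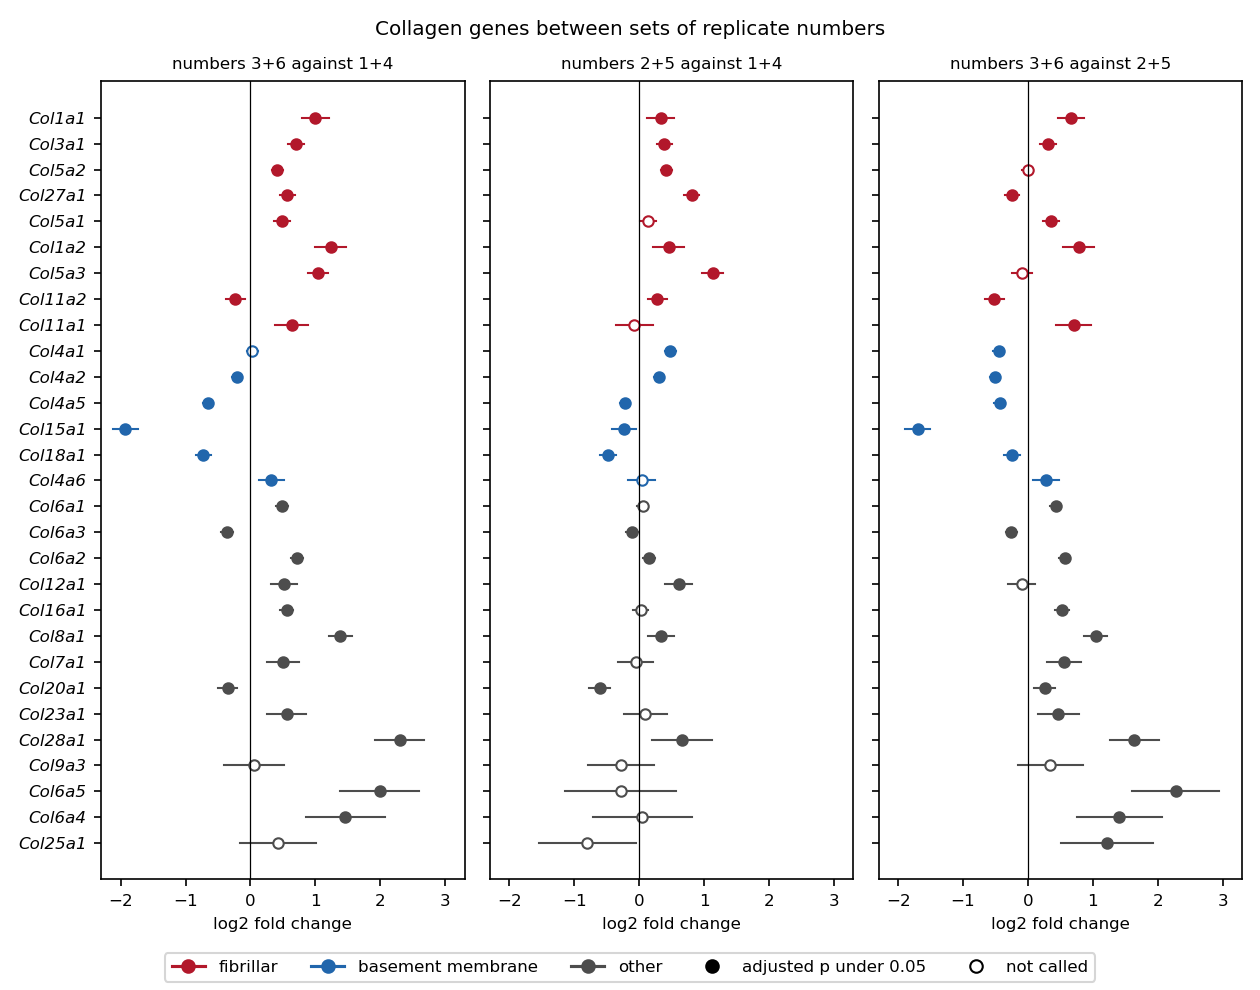
Points give the log2 fold change of each of the 29 tested collagens between sets of replicate numbers, in panels for 3+6 against 1+4, 2+5 against 1+4 and 3+6 against 2+5, with 95% intervals from edgeR as bars and filled points for an adjusted p under 0.05. Fibrillar genes (red) lie mostly right of 0 in the left panel, where 8 of 9 were called higher, and basement membrane genes (blue) mostly left of it, where 4 of 6 were called lower; library totals left unscaled changed the sign of Col18a1, Col27a1 and Col6a3 in the right panel.

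Among the fibrillar genes, the type I chains ran highest in 3+6 and lowest in 1+4 libraries. Col1a1 (chr11:94936224-94953042, plus strand, mm10), the major chain of type I collagen, had a lowest, median and highest level of 796, 838 and 1037 CPM in 3+6 libraries, 468, 517 and 754 CPM in 2+5 libraries and 393, 430 and 478 CPM in 1+4 libraries. All 6 of the 3+6 libraries lay above all 12 others, and the 2+5 and 1+4 libraries overlapped. The log2 fold change was 1.00 ± 0.10 (SE) in 3+6 against 1+4 libraries (edgeR adjusted p = 2.8e-07) and 0.34 ± 0.10 in 2+5 against 1+4 libraries (adjusted p = 0.0077). The highest 2+5 value was that of 24 h replicate 5, and the next was 553 CPM.

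Col1a2 (chr6:4504814-4541544, plus strand), the second chain of type I collagen, had 187, 223 and 304 CPM in 3+6 libraries, 102, 130 and 200 CPM in 2+5 libraries and 89.5, 98.0 and 105 CPM in 1+4 libraries as the lowest, median and highest level. Every 3+6 library lay above every 1+4 library, and only the rRNA-rich 24 h replicate 5 of the 2+5 set reached into the 3+6 range. This gave a log2 fold change of 1.24 ± 0.11 in 3+6 against 1+4 libraries (edgeR adjusted p = 2e-07) and 0.79 ± 0.11 in 3+6 against 2+5 libraries (adjusted p = 3e-05). Type I collagen is built from more Col1a1 than Col1a2 chains, and per kb the ratio of Col1a1 to Col1a2 was 3.43 ± 0.286 in 3+6, 3.68 ± 0.357 in 2+5 and 4.03 ± 0.338 in 1+4 libraries.

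Col3a1, whose homotrimer joins type I fibrils in soft tissue, had 475, 541 and 616 CPM in 3+6, 414, 425 and 523 CPM in 2+5 and 307, 336 and 359 CPM in 1+4 libraries. The 3+6 and 2+5 libraries all lay above the 1+4 libraries, and the 3+6 and 2+5 libraries overlapped through 24 h replicate 5. Its log2 fold changes were 0.70 ± 0.06 and 0.39 ± 0.06 against 1+4. On chromosome 1 it lies tail to tail with Col5a2, at a gap of 24614 bases.

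Type V chains, which start fibrils and set their width, did not move as 1 group. Col5a2 had 390, 402 and 461 CPM in 3+6, 377, 412 and 467 CPM in 2+5 and 302, 310 and 319 CPM in 1+4 libraries. It was higher in both 3+6 and 2+5 than in 1+4 libraries, with log2 fold changes of 0.41 ± 0.04 and 0.42 ± 0.04. Between 3+6 and 2+5 it gave -0.01 (95% interval -0.09 to 0.08), and with unscaled totals and 24 h replicate 5 left out it gave 0.15.

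Col5a1, the partner chain of Col5a2, was called higher in 3+6 libraries against both other sets, with a log2 fold change of 0.49 ± 0.06 against 1+4. In 2+5 against 1+4 it was not called (0.13, 95% interval 0.01 to 0.26), but lay near the threshold. Without the filter it was called higher there (edgeR adjusted p = 0.018). Leaving out 0 h replicate 2, 4 h replicate 2 or 6, or 24 h replicate 1, 2 or 3 also gave a call (edgeR adjusted p 0.033 to 0.044). Per kb, Col5a2 over Col5a1 was 1.87 ± 0.079 in 3+6, 2.39 ± 0.125 in 2+5 and 1.97 ± 0.104 in 1+4 libraries. The less common type V chain Col5a3 (chr9:20770050-20815067, minus strand) had 18.3, 25.0 and 26.8 CPM in 3+6, 22.8, 26.1 and 29.5 CPM in 2+5 and 10.4, 11.4 and 13.1 CPM in 1+4 libraries. The 1+4 libraries lay below all the rest, while the 3+6 and 2+5 libraries overlapped. Its log2 fold change of 1.13 ± 0.08 in 2+5 against 1+4 libraries was the largest of the called collagens in that comparison (edgeR adjusted p = 2e-11).

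Col27a1, a fibrillar gene known from cartilage, was highest in the 2+5 set. It had 241, 266 and 282 CPM in 3+6, 239, 317 and 337 CPM in 2+5 and 167, 176 and 189 CPM in 1+4 libraries. The 24 h replicate 5 library alone put the 2+5 set into the range of the 3+6 set, and its next lowest 2+5 value was 307 CPM. The log2 fold change was 0.57 ± 0.05 in 3+6 and 0.81 ± 0.05 in 2+5 against 1+4 libraries, and -0.24 ± 0.05 in 3+6 against 2+5 libraries, which became 0.01 with unscaled totals.

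The type XI chains, minor parts of cartilage fibrils, went opposite ways at low level. Col11a1 averaged 10.6 ± 2.20 CPM in 3+6, 6.99 ± 2.46 CPM in 2+5 and 6.62 ± 0.652 CPM in 1+4 libraries (SD, n = 6 each) and was called higher in 3+6 libraries against both other sets. Its highest 2+5 value was that of 24 h replicate 5 (11.9 CPM), and the next was 6.40 CPM. Col11a2 averaged 11.2 ± 0.922 CPM in 3+6, 15.3 ± 2.19 CPM in 2+5 and 13.2 ± 1.56 CPM in 1+4 libraries, overlapped between all sets and was the only fibrillar gene called lower in 3+6 against 1+4 libraries (log2 fold change -0.24 ± 0.07, edgeR adjusted p = 0.0062). That call was not made with unscaled totals.

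Among the basement membrane genes the paired type IV genes Col4a1 and Col4a2 had the highest levels. Col4a1 (chr8:11198423-11312826, minus strand) and Col4a2 (chr8:11312805-11449287, plus strand) encode the chains of the common type IV network and lie head to head, overlapping by 22 bases in the GENCODE annotation. Promoter windows of 250 bases before to 50 after the start were taken from RefSeq (GRCm38.p6) for 35 of the 44 genes, 25 of them tested. For the head-to-head pair the windows overlap by 78 bases and the RefSeq starts lie 21 bases apart. The windows of the pair are printed because they hold 1 shared start region for genes that were both highest in the 2+5 libraries, and those of Col1a2 and Col15a1 because these genes were among the largest rises and falls of the well expressed members in the 3+6 libraries. Capitals mark matches on either strand to CCAAT (read from the other strand as ATTGG), to GGGCGG (read as CCGCCC) and to TATAAA (read as TTTATA). Each sequence runs 5′ to 3′ on its gene's strand.
Col4a1, chr8:11312777-11313076, minus strand: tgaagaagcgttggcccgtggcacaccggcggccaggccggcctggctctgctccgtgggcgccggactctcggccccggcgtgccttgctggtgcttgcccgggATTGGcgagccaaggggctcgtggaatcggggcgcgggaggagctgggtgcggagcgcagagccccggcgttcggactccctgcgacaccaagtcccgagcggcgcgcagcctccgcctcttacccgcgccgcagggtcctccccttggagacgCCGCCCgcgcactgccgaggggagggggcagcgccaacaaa
Col4a2, chr8:11312555-11312854, plus strand: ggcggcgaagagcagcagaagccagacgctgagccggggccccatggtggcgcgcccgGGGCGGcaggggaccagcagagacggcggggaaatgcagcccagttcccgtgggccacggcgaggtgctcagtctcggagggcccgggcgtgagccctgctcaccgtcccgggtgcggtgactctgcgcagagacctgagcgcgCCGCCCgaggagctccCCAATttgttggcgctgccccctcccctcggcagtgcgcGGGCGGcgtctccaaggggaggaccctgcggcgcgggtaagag
Col1a2, chr6:4505368-4505667, plus strand: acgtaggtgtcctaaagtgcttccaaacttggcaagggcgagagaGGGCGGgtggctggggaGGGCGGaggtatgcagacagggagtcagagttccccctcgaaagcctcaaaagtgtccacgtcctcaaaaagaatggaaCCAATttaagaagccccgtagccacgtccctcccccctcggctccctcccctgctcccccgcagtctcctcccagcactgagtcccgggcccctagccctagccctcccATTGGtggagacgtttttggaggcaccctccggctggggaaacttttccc
Col15a1, chr4:47207762-47208061, plus strand: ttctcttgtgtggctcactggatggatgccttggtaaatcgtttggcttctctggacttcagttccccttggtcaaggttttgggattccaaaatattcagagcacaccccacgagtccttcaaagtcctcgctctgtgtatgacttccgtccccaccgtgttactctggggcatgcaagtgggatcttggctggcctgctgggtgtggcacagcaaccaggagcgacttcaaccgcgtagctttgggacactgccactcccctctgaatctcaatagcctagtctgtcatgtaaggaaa
The last 78 letters of the Col4a1 window are the reverse complement of the last 78 of the Col4a2 window. Col4a1 held 1 CCAAT and 1 GGGCGG match, Col4a2 held 1 and 3, Col1a2 held 2 and 2, and Col15a1 held no match to any of the 3 motifs. The Col15a1 window ends before the GENCODE start of that gene (47208161), and the Col1a2 window begins after its GENCODE start (4504814). These GENCODE starts thus lay outside the windows searched. Over 38 collagen windows CCAAT was found in 13 (34.2%), GGGCGG in 23 (60.5%) and TATAAA in 5 (13.2%), against 37.4%, 35.6% and 13.6% of all 32817 windows. A match is a string of letters here and no evidence of a bound factor.

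Col4a1 had 1122, 1267 and 1314 CPM in 3+6, 1584, 1729 and 1783 CPM in 2+5 and 1160, 1227 and 1261 CPM in 1+4 libraries. All 2+5 libraries lay above all others, and the 3+6 and 1+4 libraries overlapped. Its log2 fold change was 0.48 ± 0.04 in 2+5 against 1+4 libraries (edgeR adjusted p = 1.5e-10) and -0.45 ± 0.04 in 3+6 against 2+5 libraries. In 3+6 against 1+4 libraries it gave 0.03 (95% interval -0.06 to 0.12, adjusted p = 0.54), and with unscaled totals and 24 h replicate 5 left out it was called higher at 0.19, close to the 0.16 by which all genes then moved.

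Col4a2 had 611, 639 and 687 CPM in 3+6, 867, 917 and 943 CPM in 2+5 and 717, 732 and 784 CPM in 1+4 libraries. The 3 sets did not overlap, with 2+5 highest and 3+6 lowest. Its log2 fold change was 0.30 ± 0.04 in 2+5 and -0.20 ± 0.04 in 3+6 against 1+4 libraries, the second of which was not called with unscaled totals (-0.04). The ratio of Col4a1 to Col4a2 per kb was 1.90 ± 0.066 in 3+6, 1.83 ± 0.040 in 2+5 and 1.61 ± 0.033 in 1+4 libraries, so the 1+4 libraries, at most 1.65, lay below all the rest.

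The X-linked type IV pair is arranged in the same head-to-head way, 1308 bases apart, and its members behaved differently from each other. Col4a5, which is known from kidney and skin basement membranes, had 80.6, 92.4 and 96.7 CPM in 3+6, 115, 121 and 139 CPM in 2+5 and 141, 144 and 145 CPM in 1+4 libraries. The 3 sets did not overlap, and its log2 fold change was -0.65 ± 0.04 in 3+6 and -0.22 ± 0.04 in 2+5 against 1+4 libraries. Col4a6 averaged only 7.22 ± 1.04 CPM in 3+6, 6.01 ± 0.821 CPM in 2+5 and 5.66 ± 0.584 CPM in 1+4 libraries, and was called higher in 3+6 against 1+4 libraries at 0.32 ± 0.09. Its call in 3+6 against 2+5 libraries (0.28) was lost without 0 h replicate 5 or without 24 h replicate 2 (edgeR adjusted p = 0.063 and 0.068).

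The multiplexins Col15a1 and Col18a1, which carry endostatin-type fragments at their ends, were the basement membrane genes that fell most in 3+6 against 1+4 libraries. Col15a1 (chr4:47208161-47313167, plus strand) had 18.8, 25.0 and 25.8 CPM in 3+6, 60.7, 78.5 and 88.3 CPM in 2+5 and 67.0, 97.1 and 99.6 CPM in 1+4 libraries. The 3+6 libraries lay far below the others, whose ranges overlapped. Its log2 fold change was -1.93 ± 0.09 in 3+6 against 1+4 libraries (edgeR adjusted p = 2.5e-11) and -1.70 ± 0.09 in 3+6 against 2+5 libraries. In 2+5 against 1+4 libraries it was -0.23 ± 0.08 (adjusted p = 0.025), a call that was lost when any of 7 single libraries was left out (0 h replicates 2 and 4, 4 h replicates 1, 2, 4 and 5, and 24 h replicate 1, adjusted p 0.051 to 0.070).

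Col18a1 had 16.9, 19.4 and 20.7 CPM in 3+6, 21.0, 23.4 and 24.0 CPM in 2+5 and 29.1, 31.1 and 35.9 CPM in 1+4 libraries. The sets did not overlap. Its log2 fold change was -0.72 ± 0.06 in 3+6 and -0.48 ± 0.06 in 2+5 against 1+4 libraries, and the smaller difference between 3+6 and 2+5 libraries (-0.24 ± 0.06) became 0.02 with unscaled totals.

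**Figure D3:**
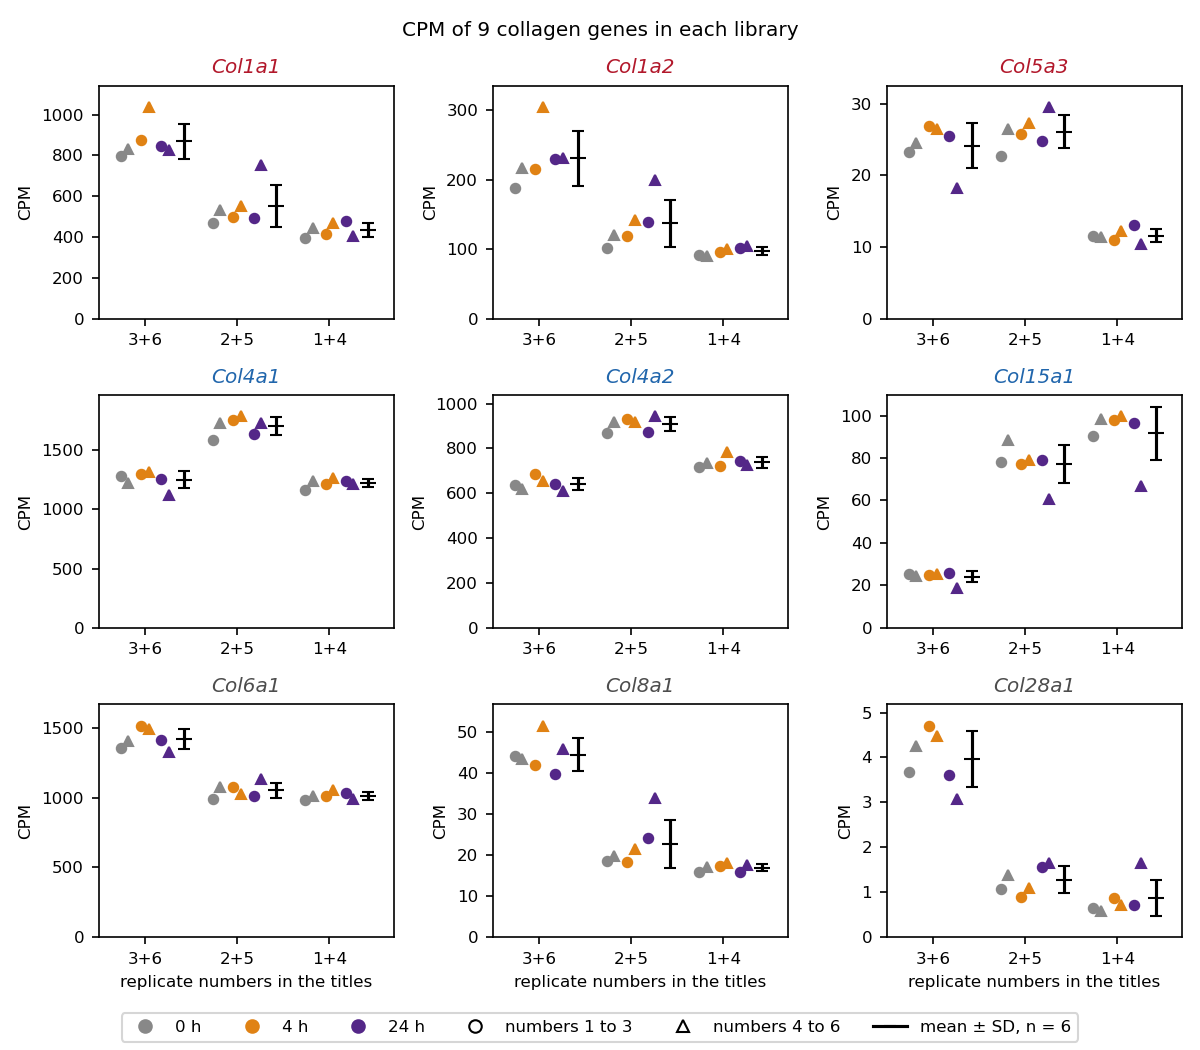
Each panel gives the CPM of 1 of 9 collagen genes in every library, by set of replicate numbers on the x axis (3+6, 2+5, 1+4) and CPM from 0 on the y axis, with colours for labelled time, circles for numbers 1 to 3, triangles for numbers 4 to 6 and a bar for the mean ± SD of the 6 libraries. Points of a set lie together whatever their labelled time: Col15a1 lies at 18.8 to 25.8 CPM in 3+6 and at 60.7 CPM or more in the others, and Col4a1 lies at 1584 CPM or more in 2+5 and at 1314 CPM or less in the others.

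Type VI chains assemble from Col6a1, Col6a2 and Col6a3, and here the third went against the other two in the 3+6 libraries. Col6a1 (chr10:76708792-76726168, minus strand) had 1328, 1409 and 1516 CPM in 3+6, 986, 1049 and 1133 CPM in 2+5 and 980, 1010 and 1053 CPM in 1+4 libraries. Col6a2, 85161 bases away on the same strand, had 698, 714 and 789 CPM in 3+6, 460, 492 and 557 CPM in 2+5 and 418, 445 and 474 CPM in 1+4 libraries. For both genes the 3+6 libraries lay above all others, and the 2+5 and 1+4 libraries overlapped.

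The log2 fold changes in 3+6 against 1+4 libraries were 0.49 ± 0.04 for Col6a1 (edgeR adjusted p = 9.3e-11) and 0.72 ± 0.04 for Col6a2 (adjusted p = 5.6e-14). Col6a3 (chr1:90765923-90843971, minus strand) had 755, 828 and 852 CPM in 3+6, 914, 984 and 1012 CPM in 2+5 and 971, 1045 and 1119 CPM in 1+4 libraries. The 3+6 libraries lay below all others, with a log2 fold change of -0.36 ± 0.04 against 1+4 libraries, which became -0.20 and was not called with unscaled totals. Per kb, Col6a3 over Col6a1 was 0.261 ± 0.014 in 3+6, 0.420 ± 0.011 in 2+5 and 0.470 ± 0.018 in 1+4 libraries, and this ratio within a library does not depend on scaling. Col6a3 was also called lower in 2+5 against 1+4 libraries at -0.11 ± 0.04, but the call was lost without any of 7 single libraries (0 h replicates 2, 4 and 6, 4 h replicates 4 and 5, and 24 h replicates 1 and 2).

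The further type VI genes Col6a4 and Col6a5, neighbours on chromosome 9, were near the limit of detection and higher in the 3+6 libraries. Col6a5 had 0.619, 0.942 and 1.95 CPM in 3+6, 0, 0.180 and 0.334 CPM in 2+5 and 0.182, 0.241 and 0.405 CPM in 1+4 libraries. Col6a4 averaged 0.837 ± 0.171 CPM in 3+6, 0.300 ± 0.146 CPM in 2+5 and 0.308 ± 0.119 CPM in 1+4 libraries. For both genes the 3+6 libraries lay above all others, but 24 h replicate 5 cannot show this, since a count of 0 there allows up to 0.994 CPM. That limit lies above the lowest 3+6 value of each gene. By CPM of unscaled totals, which the filter uses, both genes reached its level of 0.471 CPM in 6 of 6 of the 3+6 libraries. They did so in at most 1 library of each other set. They were thus tested only because they were high in 3+6 libraries, and their calls there add nothing to these values.

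Col8a1, the short-chain collagen known from vessel walls and cornea, and Col28a1, a small von Willebrand domain collagen known from peripheral nerve, rose most in 3+6 against 1+4 libraries among the other collagens with a mean of at least 1 CPM. Col8a1 (chr16:57624258-57754737, minus strand) had 39.7, 43.7 and 51.5 CPM in 3+6, 18.2, 20.6 and 33.8 CPM in 2+5 and 15.8, 17.2 and 17.9 CPM in 1+4 libraries. The 3 sets did not overlap, and the highest 2+5 value was again 24 h replicate 5. The log2 fold change was 1.38 ± 0.08 in 3+6 and 0.34 ± 0.10 in 2+5 against 1+4 libraries.

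Col28a1 (chr6:7997808-8192617, minus strand) had 3.08, 3.96 and 4.71 CPM in 3+6, 0.882, 1.24 and 1.66 CPM in 2+5 and 0.590, 0.717 and 1.66 CPM in 1+4 libraries. The 3+6 libraries lay above all others, at a log2 fold change of 2.30 ± 0.19 against 1+4 libraries (edgeR adjusted p = 2.4e-11). Its rise in 2+5 against 1+4 libraries, 0.66 ± 0.23, was not called without 24 h replicate 2 (0.55, adjusted p = 0.062).

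The fibril-associated collagens split. Col12a1, which bridges fibrils and neighbouring matrix, had 122, 134 and 194 CPM in 3+6, 128, 154 and 191 CPM in 2+5 and 94.0, 101 and 107 CPM in 1+4 libraries and was higher in both 3+6 and 2+5 than in 1+4 libraries without overlap. Col16a1 averaged 35.7 ± 3.29 CPM in 3+6, 25.0 ± 2.82 CPM in 2+5 and 24.2 ± 2.12 CPM in 1+4 libraries and was higher in 3+6 alone. Its highest 2+5 value was that of 24 h replicate 5 (30.5 CPM), and the next was 25.2 CPM. Col20a1 averaged 7.51 ± 0.953 CPM in 3+6, 6.29 ± 0.644 CPM in 2+5 and 9.61 ± 0.746 CPM in 1+4 libraries, and its log2 fold change of -0.61 ± 0.08 was the largest fall among the called collagens in 2+5 against 1+4 libraries. Its value is uncertain, since 79 of its exon bases lie in BX649560.1 on the same strand, which had 5823 counts against 2813 for Col20a1.

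Col7a1, which forms the anchoring fibrils under skin, averaged 15.8 ± 3.76 CPM in 3+6, 10.6 ± 1.59 CPM in 2+5 and 10.8 ± 0.882 CPM in 1+4 libraries and was called higher in 3+6 libraries against both other sets. The membrane-spanning Col23a1 averaged 3.06 ± 0.356, 2.28 ± 0.637 and 2.12 ± 0.493 CPM in those 3 sets and was called higher in 3+6 libraries against both. The membrane-spanning Col25a1 averaged 0.557 ± 0.246, 0.219 ± 0.0859 and 0.411 ± 0.180 CPM and was called in 3+6 against 2+5 libraries alone, having passed the filter through 4 of the 3+6 and 2 of the 1+4 libraries. Col9a3, a cartilage gene, was called in no comparison of sets.

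By the order of their set means, 12 collagens ran highest in 3+6, then 2+5, then 1+4, and 6 of these passed the test in all 3 comparisons: Col1a1, Col1a2, Col3a1, Col6a2, Col8a1 and Col28a1. The reverse order held for 4 genes, Col4a5, Col6a3, Col15a1 and Col18a1, all called in every comparison. The 2+5 set was highest for 7 genes, Col4a1, Col4a2, Col5a2, Col5a3, Col11a2, Col12a1 and Col27a1. For Col11a1, Col16a1, Col23a1 and Col5a2 the place of 2+5 rests on 24 h replicate 5. That library was the highest of its set for each, at 11.9, 30.5, 3.32 and 467 CPM. For Col11a1 the other 2+5 libraries reached at most 6.40 CPM, below the 1+4 mean of 6.62 CPM. Every class thus held genes of more than 1 order, and no set was highest for all collagens.

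**Figure D4:**
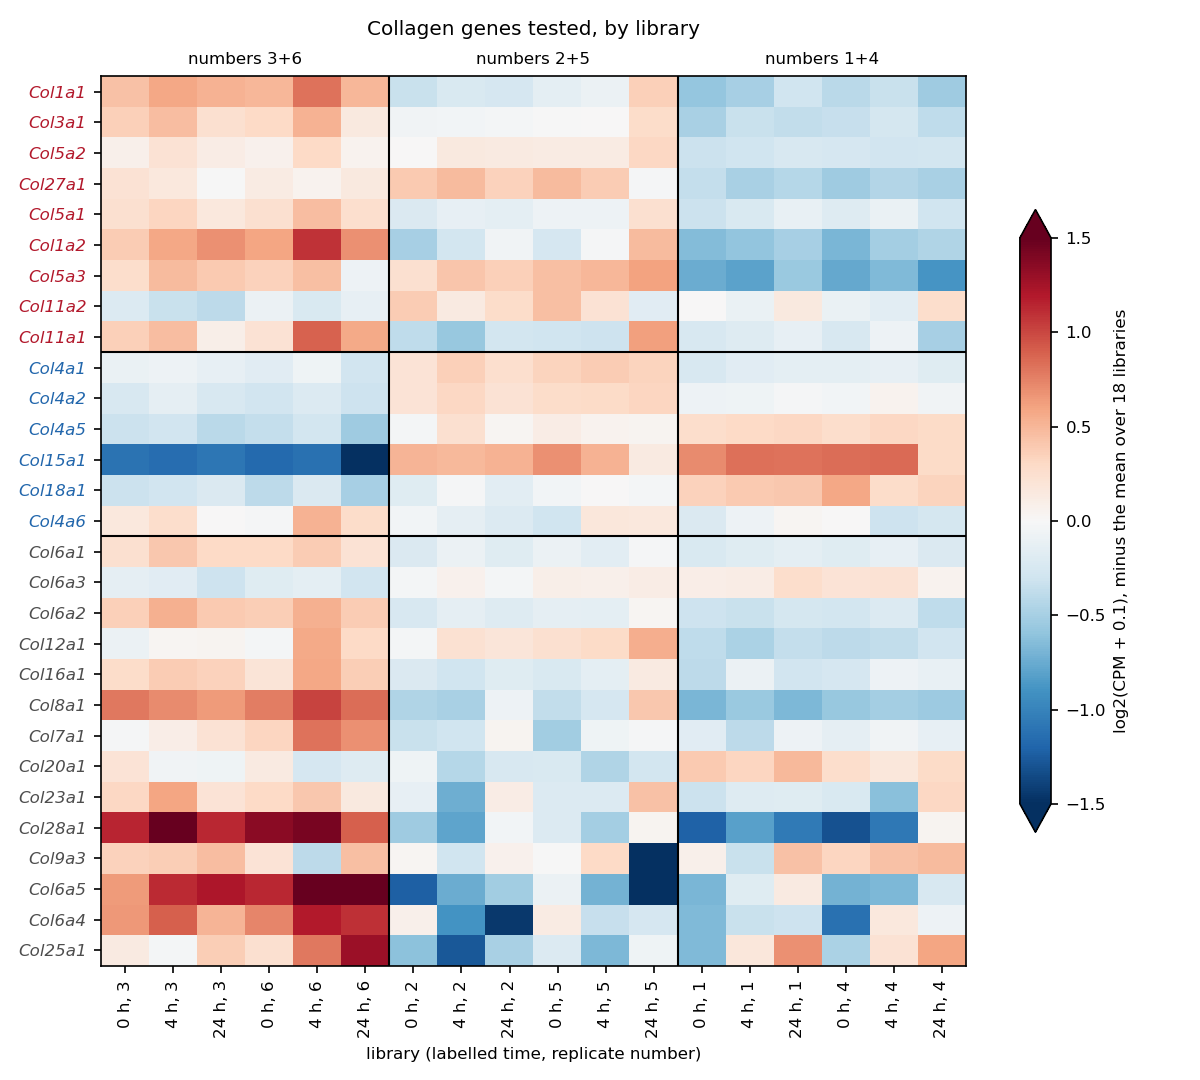
Rows are the 29 tested collagens, by class (fibrillar red, basement membrane blue, other grey) and by mean level within a class, and columns are the 18 libraries by set, replicate number and labelled time; colour gives log2(CPM + 0.1) minus the mean over the 18 libraries. Blocks of like colour follow the sets, such as low Col15a1 and high Col28a1 in 3+6, and the 24 h replicate 5 column differs from its 5 neighbours for Col1a1, Col1a2, Col11a1, Col9a3 and Col6a5.

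The labelled times, which the study set out to compare, gave no called collagen. With time as the only factor 0 of 29 collagens passed at 4 h against 0 h, at 24 h against 0 h and at 24 h against 4 h, against 0.0% of all genes in each comparison (edgeR). At an unadjusted p under 0.05 these counts were 0, 1 and 0 collagens, against 173, 158 and 137 of all genes, and DESeq2 and limma-voom also called 0. The spread within a time was wide because each time holds all 3 sets: Col1a1 had a lowest, median and highest level of 393, 501 and 831 CPM at 0 h, 417, 527 and 1037 CPM at 4 h and 405, 625 and 845 CPM at 24 h. Col15a1 likewise had 24.4, 83.2 and 98.5 CPM at 0 h, 24.8, 78.0 and 99.6 CPM at 4 h and 18.8, 63.8 and 96.5 CPM at 24 h. No collagen had times without overlap, against 0.0676% of all genes at 4 h and 0.0406% at 24 h against 0 h.

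A model that also held the replicate number, as a block, estimated the differences between times more closely, and again 0 of 29 collagens passed, against 0.0%, 0.00676% and 0.0% of all genes at 4 h against 0 h, 24 h against 0 h and 24 h against 4 h. The smallest adjusted p (edgeR, replicate block) was 0.253 at 4 h against 0 h, for Col16a1, and 0.292 at 24 h against 0 h, for Col7a1. At an unadjusted p under 0.05 there were 6 collagens at 4 h and 6 at 24 h against 0 h, against 9.88% and 7.81% of all genes, and 1 at 24 h against 4 h, against 5.12%. The median log2 fold change of the collagens was 0.08 at 4 h and 0.05 at 24 h against 0 h, and -0.03 at 24 h against 4 h. The estimate was above 0 for 23 of 29 collagens at 4 h and 19 at 24 h against 0 h, against 53.0% and 47.2% of all genes.

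Taken within each replicate number, some collagens lay on the same side in all 6. At 4 h against 0 h Col1a1, Col1a2, Col3a1, Col4a1, Col4a2 and Col5a1 were higher in 6 of 6 numbers, against 3.53% of all genes, and Col11a2 and Col20a1 were lower in 6 of 6, against 3.12%. Some of these differences were close to none: in number 5 the log2 difference was 0.004 for Col4a2, 0.003 for Col5a1 and 0.014 for Col3a1. At 24 h against 0 h Col1a2, Col7a1, Col12a1, Col16a1 and Col25a1 were higher in 6 of 6 numbers, against 2.55% of all genes, and none was lower in 6 of 6, against 1.97%. At 24 h against 4 h Col25a1 was higher in 6 of 6 numbers, against 1.37% of all genes, and none was lower in 6 of 6, against 2.16%. For Col4a1 the difference was small beside those between sets: it was at 1369 ± 230 CPM at 0 h, 1438 ± 258 CPM at 4 h and 1366 ± 251 CPM at 24 h, with a blocked log2 fold change at 4 h of 0.07 ± 0.04. For Col25a1 it was not: this gene had 0.222, 0.534 and 1.00 CPM at 24 h, against 0.187, 0.259 and 0.437 CPM at 0 h, as the lowest, median and highest level, and the ranges overlapped. Its blocked log2 fold change of 0.91 ± 0.30 at 24 h against 0 h (edgeR adjusted p = 0.365) was the highest estimate of the collagens there, beside 0.42 in 3+6 and -0.80 in 2+5 against 1+4 libraries. The filter works on CPM of unscaled totals. By these Col25a1 reached its level of 0.471 CPM in just the 6 libraries needed, among them 24 h replicates 1, 3, 4 and 6. Its level at 24 h thus helped it to be tested, and its 6 of 6 and its estimate there add nothing to these values. In number 5 it had 0.332 CPM at 24 h against 0.292 CPM at 0 h, in a 24 h library where a count of 0 allows up to 0.994 CPM.

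Col1a2 was called between times in 1 fit, which was chosen after seeing the data. In numbers 1 to 6 it had 102, 139, 230, 105, 200 and 231 CPM at 24 h, against 91.4, 102, 187, 89.5, 121 and 216 CPM at 0 h. Every number was higher at 24 h, most in number 5, whose 24 h library is the rRNA-rich one. The blocked log2 fold change was 0.31 ± 0.09 (edgeR adjusted p = 0.346), and that fit, limma-voom with the same block and library weights, gave 0.30 ± 0.07 and called it (adjusted p = 0.048) among 58 genes or 0.392% of all. At 4 h against 0 h it called 33 genes, 0.223% of all, and no collagen.

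**Figure D5:**
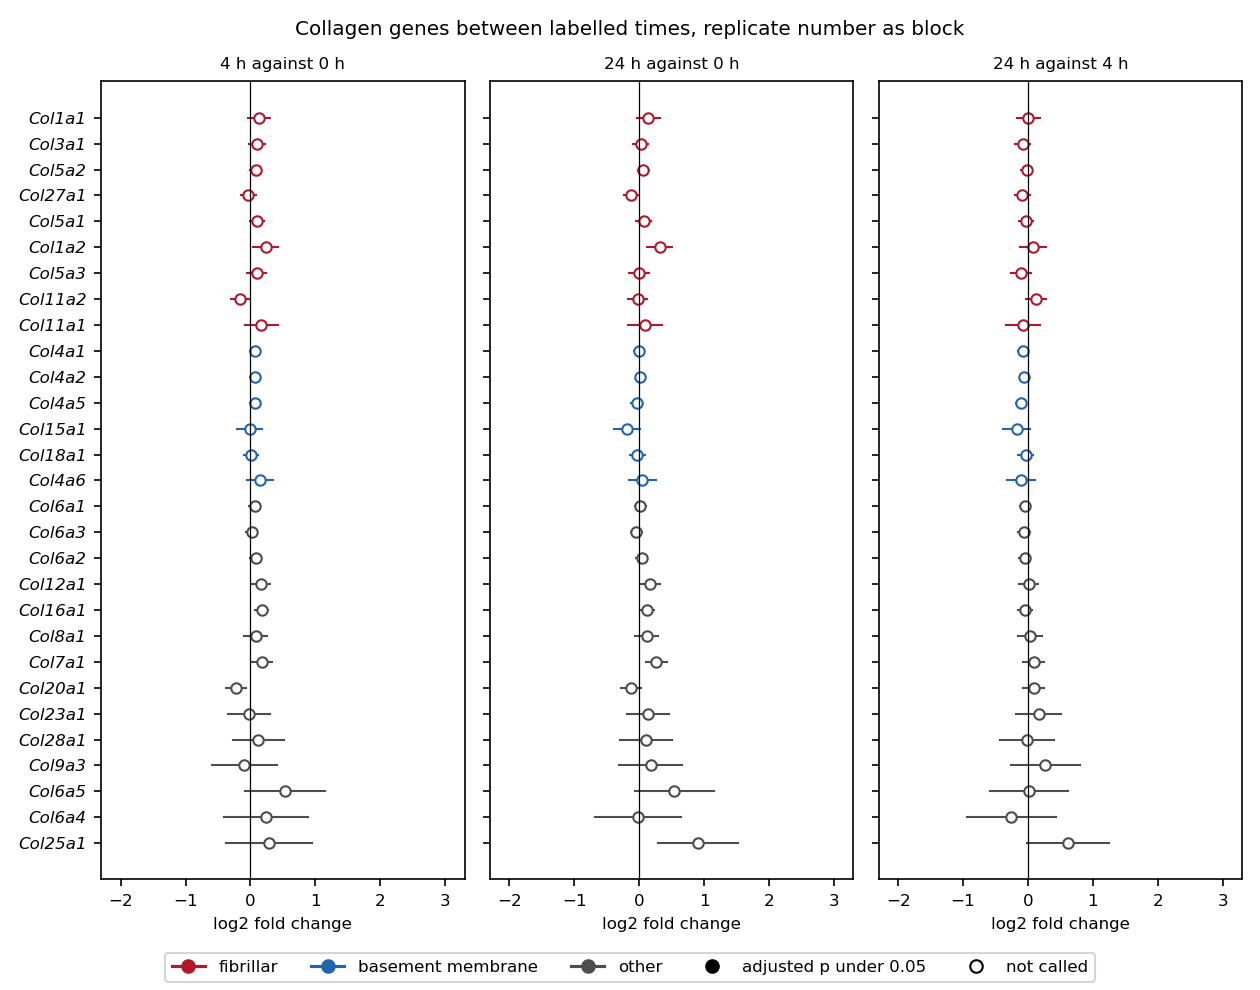
Points give the log2 fold change of each of the 29 tested collagens between labelled times with the replicate number as a block, in panels for 4 h against 0 h, 24 h against 0 h and 24 h against 4 h, with 95% intervals from edgeR as bars, on the same x axis as the plot of sets. All points are open, since none passed an adjusted p under 0.05, and most lie within a log2 value of 0.3 of 0.

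Whether the difference between labelled times varied with the set was asked with an interaction of time and set. Each combination of time and set held few libraries, such as replicates 3 and 6 at 4 h. The interaction called 0 of 29 collagens and 0 of all genes (edgeR). At an unadjusted p under 0.05 there were 3 collagens, Col3a1, Col6a4 and Col8a1, and 415 genes. Without the filter on low counts the same model called 302 genes (1.15% of all), among them Col1a2 and Col8a1. With time as the only factor 0 of 14788 genes were called between labelled times, so the lack of calls there was not particular to collagens. Whether the time labels match the treatment was not tested.

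Genes that make, export, trim and bind collagen also differed between the sets, in both directions. Of 17 tested genes for folding and modification of the chains, 8 were higher and 6 lower in 3+6 against 1+4 libraries, 2 higher and 10 lower in 2+5 against 1+4, and 13 higher and 3 lower in 3+6 against 2+5. Of all genes 30.2% were higher and 29.5% lower, 29.6% higher and 29.9% lower, and 28.6% higher and 28.5% lower in these 3 comparisons. The prolyl hydroxylase subunit P4ha1 had 66.5, 74.7 and 78.9 CPM in 3+6, 118, 129 and 138 CPM in 2+5 and 210, 287 and 299.6 CPM in 1+4 libraries as the lowest, median and highest level. Its sets did not overlap, and its log2 fold change in 3+6 against 1+4 libraries was -1.89. The lysyl hydroxylase Plod1 fell by 1.45 on the log2 scale in the same comparison, while P4ha3, another prolyl hydroxylase subunit, rose by 1.62 with 6.97 to 8.88 CPM in 3+6 and 2.22 to 3.12 CPM in 1+4 libraries. Serpinh1, the collagen chaperone HSP47, averaged 252 ± 12.9 CPM in 3+6, 176 ± 16.8 CPM in 2+5 and 268 ± 10.5 CPM in 1+4 libraries.

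Of 6 tested genes for procollagen cleavage, 5 were higher and 0 lower in 3+6 against 1+4 libraries, against 30.2% and 29.5% of all genes, among them the N-proteinases Adamts14 (log2 fold change 1.60) and Adamts2 (0.75). Of 5 cross-linking genes of the lysyl oxidase family, 4 were higher and 1 lower in that comparison, with Loxl3 at 0.97 and Lox at 0.50 against Loxl2 at -0.84. Of 7 tested receptors 1 was higher, the uptake receptor Mrc2 (0.46), and 4 were lower, among them the integrin Itga1 (-0.42). Of 3 tested export genes 1 was higher and 1 lower. No gene of these lists was called between labelled times, with or without the block.

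Marker genes moved between the sets as well. All 7 tested fibroblast and preadipocyte markers were higher in 3+6 against 1+4 libraries, against 30.2% of all genes, and 6 of 7 in 2+5 against 1+4, against 29.6%. Their summed level ran from 614 to 763 CPM in 3+6, 582 to 731 CPM in 2+5 and 445 to 480 CPM in 1+4 libraries. Vim, at a mean of 385 CPM over all libraries, weighed most in this sum. Of 10 brown adipocyte markers 2 were higher and 5 lower in 3+6 against 1+4 libraries, where 29.5% of all genes were lower. The summed levels of these markers were 3463 to 4242 CPM in 3+6, 3133 to 3623 CPM in 2+5 and 4235 to 4427 CPM in 1+4 libraries. Fabp4, at a mean of 2301 CPM over all libraries, weighed most in that sum. In 2+5 against 1+4 libraries 3 adipocyte markers were higher and 5 lower, against 29.6% and 29.9% of all genes. In 3+6 against 2+5 libraries 5 were higher and 3 lower, against 28.6% and 28.5% of all genes. There the fibroblast and preadipocyte markers were 5 higher and 1 lower. Smooth muscle and mural markers, of which 4 of 6 were tested, summed to between 63.4 and 85.9 CPM in 3+6 libraries. The sums were 32.8 to 57.7 CPM in 2+5 and 29.4 to 32.3 CPM in 1+4 libraries. Acta2, at a mean of 34.9 CPM over all libraries, weighed most in them, before Tagln at 6.58 CPM. Of the 4 tested, 2 were called higher and 1 lower in 3+6 against 1+4 libraries, against 30.2% and 29.5% of all genes. In both other comparisons 2 were called higher and 0 lower. The part of these shifts in the collagen differences was not tested.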

How the data were processed

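Total RNA of 18 BMC libraries was sequenced as 52-base read pairs after depletion of ribosomal RNA with a kit that keeps the strand, per the labels. The authors deposited expected counts per gene from salmon, merged over libraries, as the name of the table records; 27.4% of its values above 0 are not whole. Named without versions in the submitters' processing notes are edgeR, limma and mm10. No version of salmon, annotation or strand setting is given in the sources used here, so genes that overlap on 1 strand, and antisense genes, are uncertain. Salmon divides reads among similar transcripts.

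Collagen genes were taken by symbol, and the classes, pathway lists and marker lists were chosen with earlier results of these data known. Counts were rounded, filtered with filterByExpr (minimum count 10, minimum total 15), which left 14788 genes, and scaled by TMM. CPM used the scaled totals. Lengths were those of the principal transcripts in GENCODE M21 (mm10), in which 45143 gene identifiers were found, and positions come from there too. Tests were edgeR's robust quasi-likelihood F-tests over all 18 libraries, with Benjamini-Hochberg adjustment over all tested genes and a threshold of 0.05. Times were compared with time as the only factor, and sets of replicate numbers with time beside the set. SE denotes the error of the fitted log2 value, from the F statistic, and intervals cover 95%. All tests are two-sided.

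Deviations from the time means correlated between 0.297 and 0.718 in the 18 pairs of libraries of 1 number at different times, all over the bound of 0.1, so the numbers in the titles were taken to pair the libraries and a fit with the number as a block was added. Libraries of 1 set but different numbers and times correlated nearly as closely, between 0.237 and 0.688 (median 0.569, against 0.590 for 1 number), so much of this correlation is shared by the set. Genes described at length were fixed by a rule: the 6 with the highest mean CPM per kb, the 4 with the largest called change in each comparison of sets among those with a mean of at least 1 CPM, and Col4a1 and Col4a2. Any other gene was chosen after its values were seen. Alternatives were size factors of DESeq2, no scaling, no filter, DESeq2, limma-voom, the block, the number as a random effect and leaving out each library. Fits of these kinds were also run on simulated counts with known changes and with no effect of the single replicate number. Their outcome is not given here, and no result rests on it. Tests ran in edgeR 4.0.16, DESeq2 1.42.0 and limma 3.58.1 under R 4.3.3, and tables and plots were made with pandas 2.3.3, numpy 2.4.6 and matplotlib 3.10.9 under Python 3.11.15.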

Additional observations from a re-analysis of the deposited data

Results flagged for a closer look

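Each of the 29 tested collagens was examined in its groups of 6 libraries, by set and by labelled time, for a library whose gap to its nearest neighbour took up more of the group's range than Dixon's 95% critical value for 6 samples. Of 174 groups 16 had such a library, and chance gives about 1 in 20. In 8 of the 16 it was 24 h replicate 5, the library called rRNA-rich for its share of counts on Yam1 and Gm26917. Within the 2+5 set this library was highest for Col1a1 (754 CPM), Col3a1 (523 CPM), Col5a1 (273 CPM), Col6a2 (557 CPM), Col16a1 (30.5 CPM) and Col11a1 (11.9 CPM), and lowest for Col27a1 (239 CPM). Within 24 h it was lowest for Col9a3, at 0 CPM. The part of ribosomal RNA or depth in these values was not tested.

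In the 3+6 set the 4 h replicate 6 library was highest for Col1a1 (1037 CPM) and lowest for Col9a3 (0.486 CPM), and 24 h replicate 6 was lowest for Col15a1 (18.8 CPM). In the 1+4 set 24 h replicate 4 was lowest for Col15a1 (67.0 CPM) and highest for Col28a1 (1.66 CPM), and 4 h replicate 1 was lowest for Col7a1 (9.17 CPM). Among labelled times, Col7a1 was highest in replicate 6 at 4 h (21.3 CPM) and at 24 h (19.4 CPM).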

How the results depend on the processing

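The counts of called collagens kept within 1.5 times of 26, 18 and 25 (3+6 against 1+4, 2+5 against 1+4, 3+6 against 2+5) under each alternative run except in 2+5 against 1+4 with unscaled totals, where the count was 5. There 24 h replicate 5, left out as well in a setting chosen after seeing the data, gave 16. Leaving out each library gave 26 to 26, 16 to 19 and 24 to 26 calls. With unscaled totals Col18a1 (0.016), Col27a1 (0.013) and Col6a3 (0.031) turned from negative to positive log2 fold changes in 3+6 against 2+5, and Col5a2 did so at 0.15 with 24 h replicate 5 also left out, where all genes moved by 0.11. Between times, 0 collagens were called in each alternative, the replicate block (0) and each left-out library (0 to 0) included, except 1 in limma-voom with replicate block and library weights at 24 h against 0 h. The interaction called 2 collagens without the filter and 0 in the other alternatives run; the cause was not tested. Depth limits the 15 untested genes and those near 1 CPM; the limit given for a count of 0 covers counting error only.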
